A study of Mus musculus with 12 samples.

Results

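The Polo-like kinases are a family of 5 mouse genes, Plk1 to Plk5, and all 5 were found by symbol among the 21967 genes of the deposited expression table. The family was selected on measured values of these same libraries. The fall of Plk5 with genotype in vehicle slices was known beforehand, and the response to treatment in slices without Cre is handled in the same way, so both are given below as descriptions, with no p for any kinase. Counts of called kinases in these 2 comparisons stand beside the share of all genes called, and nothing is read from them. The tests are kept for the other genotype's response to treatment, for the genotype difference in treated slices and for the interaction. Those results were not independent of the choice either, since earlier results of the whole series were known.

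Polo-like kinases share a polo-box region that docks them on phosphorylated partners. PLK1 drives mitotic entry, spindle assembly and cytokinesis, and PLK4 starts the duplication of centrioles. PLK2 and PLK3 were first described as products of early response genes, and in neurons PLK2 is induced by prolonged activity and weakens synapses by phosphorylating regulators of Ras and Rap such as SPAR, the product of Sipa1l1. PLK5 is found mostly in the brain, lacks a kinase domain in humans and has been linked to the outgrowth of neurites.

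RNA with poly(A) tails was sequenced from organotypic brain slices cut from mice at postnatal day 6 and cultured for 8 days before treatment. All slices carried floxed Mef2c on both chromosomes (Mef2c fl/fl), and one genotype also carried 1 copy of a CaMKIIα-Cre transgene (CaMKiialpha Cre +/-), whose promoter is active in forebrain excitatory neurons, so other cells would keep Mef2c. Vehicle slices received 1% DMSO with 1% water, and treated slices received 100 µM picrotoxin, a blocker of GABA-A receptors, together with 100 µM 4-aminopyridine, a blocker of potassium channels. There were 3 libraries in each of the 4 groups. The labels give neither the brain region, the length of the treatment nor whether replicates are separate animals, so p-values cover only the variation among the libraries sequenced, which may be technical.

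The libraries held 82235674 to 140390406 counted reads, and a count of 0 would have allowed up to 0.0214 to 0.0365 CPM (3 reads, reads of a gene scaled to a common library total, counting error only). The targeted gene went against its label. Mef2c averaged 1002 ± 123 CPM in vehicle and 1080 ± 130 CPM in treated slices without Cre, but 2267 ± 161 and 2156 ± 188 CPM in the libraries labelled Cre (SD, n = 3 each), with an exact two-sided permutation p of 0.1 in each treatment, the smallest that 3 against 3 libraries allow. Gene totals cannot show whether the floxed part was removed. Every genotype direction below follows the labels and would turn round if they were exchanged. The excitatory neuron marker Slc17a7 averaged 1832 CPM in vehicle slices without Cre, while the mature oligodendrocyte markers Mog and Opalin averaged 0.083 and 0.0252 CPM.

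Levels of different genes were compared per kilobase of annotated exon, using GENCODE M21 lengths, since CPM alone grows with transcript length. In vehicle slices without Cre, Plk2 was the most abundant member at 31.4 ± 2.71 CPM per kb (SD, n = 3). Plk5 at 3.24 ± 0.682 and Plk3 at 2.67 ± 0.357 CPM per kb followed, and their libraries overlapped. The mitotic and centriolar kinases were lowest, with Plk1 at 0.602 ± 0.104 and Plk4 at 0.439 ± 0.0423 CPM per kb, and these 2 did not overlap. Their order rests on the annotated exon lengths, 2199 bases for Plk1 and 6855 for Plk4. In CPM it was the reverse, 1.32 for Plk1 and 3.01 for Plk4. In vehicle slices labelled Cre, Plk5 took the last place at 0.291 ± 0.0485 CPM per kb, below Plk4 at 0.424 ± 0.0267, and the libraries of Plk1, at 0.652 ± 0.231, spanned those of Plk4.

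**Figure D1:**
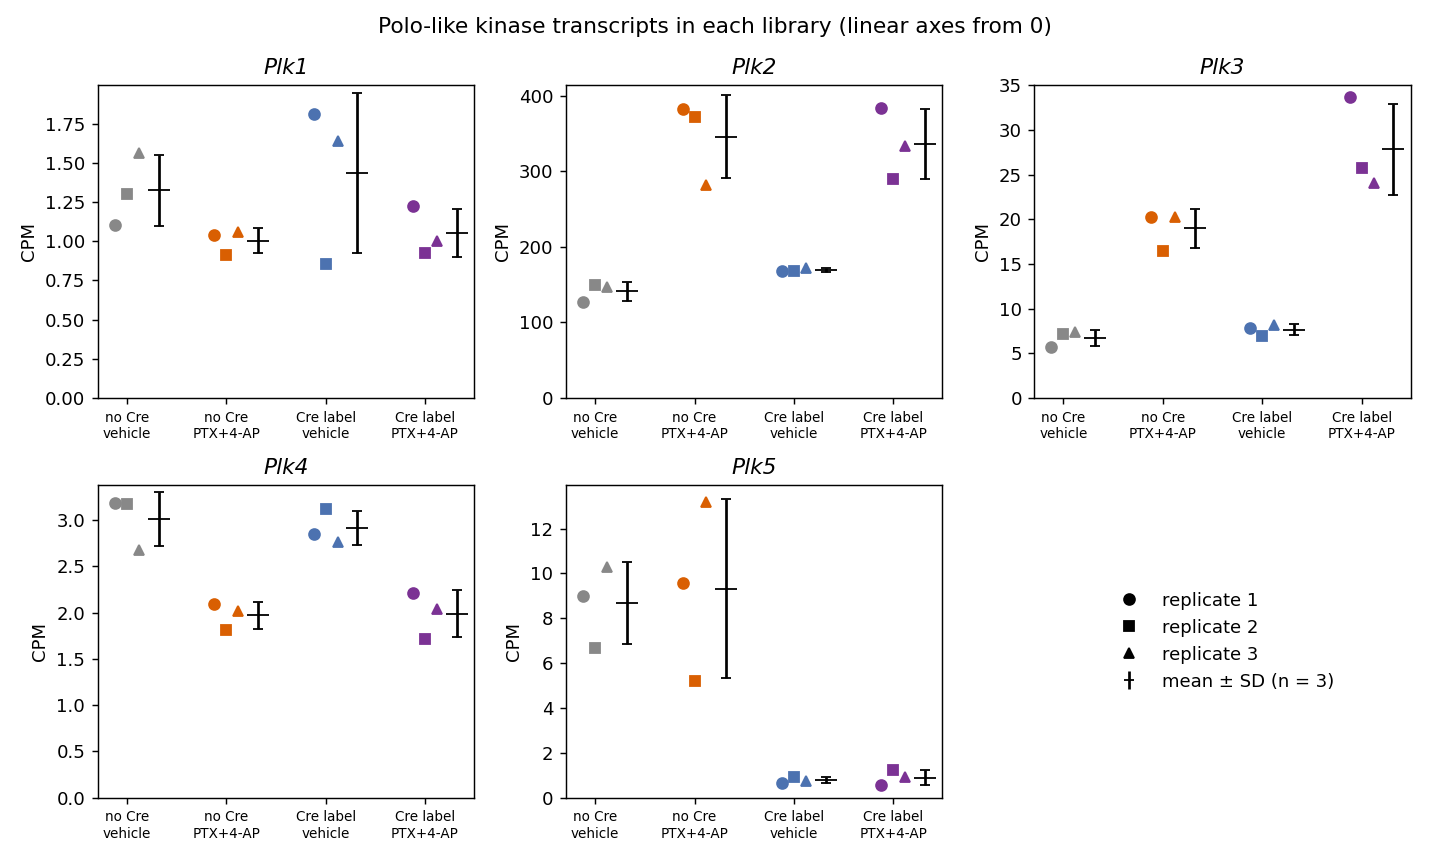
CPM of each Polo-like kinase in the 12 libraries, 1 panel per gene with a linear axis from 0. Points are libraries, the bar beside them is the mean and SD (n = 3). Plk2 and Plk3 are high in both treated groups (PTX+4-AP, picrotoxin with 4-aminopyridine), Plk4 is lower there, and Plk5 is low in both groups labelled Cre.

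The first comparison asked how the family responds to the drugs in slices without Cre. Plk2 (chromosome 13, 110395046 to 110400844, plus strand of GRCm38) stood at 127, 149 and 147 CPM in the vehicle libraries and at 382, 372 and 282 CPM in the treated ones. The lowest treated library was thus well above the highest vehicle library. The ratio of means was 2.45, and the difference in log2(CPM + 1) was 1.28 (SE 0.12). Plk3 (chromosome 4, 117128655 to 117133963, minus strand), whose protein acts in stress and cell cycle responses, had 5.73, 7.12 and 7.42 CPM with vehicle, against 20.3, 16.5 and 20.3 CPM with the drugs. These groups were also separate, with a ratio of means of 2.81 and a log2 difference of 1.37 (SE 0.13). The annotated gene Tctex1d4 lies across Plk3 on the opposite strand and held at most 0.263 CPM in any library. The strand setting of the counting is not stated, so reads from their overlap cannot be told apart.

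The cell cycle members did not share that direction. Plk4 (chromosome 3, 40800019 to 40816883, plus strand) measured 3.19, 3.17 and 2.68 CPM with vehicle and 2.09, 1.81 and 2.02 CPM with the drugs, in slices without Cre. All treated libraries were below all vehicle libraries, and the log2 difference was -0.43 (SE 0.09). Plk1 (chromosome 7, 122159439 to 122169873, plus strand) measured 1.11, 1.30 and 1.56 CPM with vehicle and 1.04, 0.913 and 1.06 CPM with the drugs, on 91 to 183 reads per library. Its groups lay close together without overlapping, and its log2 difference of -0.21 had a 95% interval from -0.52 to 0.10. The annotated gene Gm44985 overlaps Plk1 on the opposite strand, so the unstated strand setting bears on Plk1 as well. Plk5 (chromosome 10, 80356459 to 80365489, plus strand) was spread widely, at 9.01, 6.69 and 10.3 CPM in vehicle and 9.59, 5.20 and 13.2 CPM in treated libraries. The treated values lay on both sides of the vehicle values.

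Of the 5 members, 2 were called higher and 1 lower in limma with an adjusted p below 0.05 in this comparison, a count given as description only. Over all 13048 tested genes 3.24% were called higher and 9.34% lower. Plk3 and Plk2 held places 94 and 111 from the top when all tested genes were ranked by their difference. Rises were 25.8% of all calls with the deposited scaling, 48.7% with median-ratio scaling and 41.5% in edgeR with TMM. The directions of Plk2, Plk3 and Plk4 were the same under all 3.

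The same drugs were then put to slices labelled Cre, which share no library with the first comparison. The fit takes its spread from all 12 libraries, and the choice of the family was not independent of these values. The p-values here are thus not those of a separate test. Plk2 stood at 168, 169 and 172 CPM in vehicle libraries and at 383, 290 and 334 CPM in treated libraries. The vehicle libraries lay close together, and each treated library was above all of them. Plk2 rose by 0.97 on the log2(CPM + 1) scale (SE 0.12, limma adjusted p = 0.000153), a ratio of means of 1.98. Plk3 went from 7.84, 6.94 and 8.12 CPM with vehicle to 33.6, 25.8 and 24.1 CPM with the drugs. It was the member with the larger rise, 1.73 on the log2 scale (SE 0.13, limma adjusted p = 2.34e-06) and a ratio of means of 3.65, with no overlap between the groups. In the ranking of all tested genes Plk3 held place 68 and Plk2 place 160.

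Plk4 fell here as well. The vehicle libraries labelled Cre held 2.85, 3.11 and 2.76 CPM and the treated ones 2.22, 1.72 and 2.04 CPM, again without overlap. The mean fell by 31.6%, or -0.39 on the log2 scale (SE 0.09, limma adjusted p = 0.0114). At so low a level the added 1 CPM compresses the difference, which was -0.53 with a pseudocount of 0.1 and -0.18 with one of 5. Without cKO vehicle replicate 2, the vehicle library with the highest Plk4, the call was lost (log2 difference -0.35, limma adjusted p = 0.0551).

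Plk1 in slices labelled Cre was 1.81, 0.856 and 1.64 CPM in vehicle and 1.23, 0.928 and 1.00 CPM after treatment. The second vehicle library was lower than every treated one, on 100 reads. The log2 difference of -0.23 did not pass (95% interval -0.53 to 0.08, limma adjusted p = 0.361), but without cKO vehicle replicate 2 it was -0.41 and passed (limma adjusted p = 0.035). Plk5 was 0.657, 0.916 and 0.762 CPM in vehicle and 0.554, 1.24 and 0.915 CPM after treatment, and its groups overlapped. Its log2 difference of 0.08 did not pass (95% interval -0.46 to 0.62, limma adjusted p = 0.892). In this comparison 2 of 5 members were called higher and 1 lower, beside 3.79% and 10.3% of all tested genes. Rises were 27.0% of all calls here, 38.1% with median-ratio scaling and 41.7% in edgeR.

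**Figure D2:**
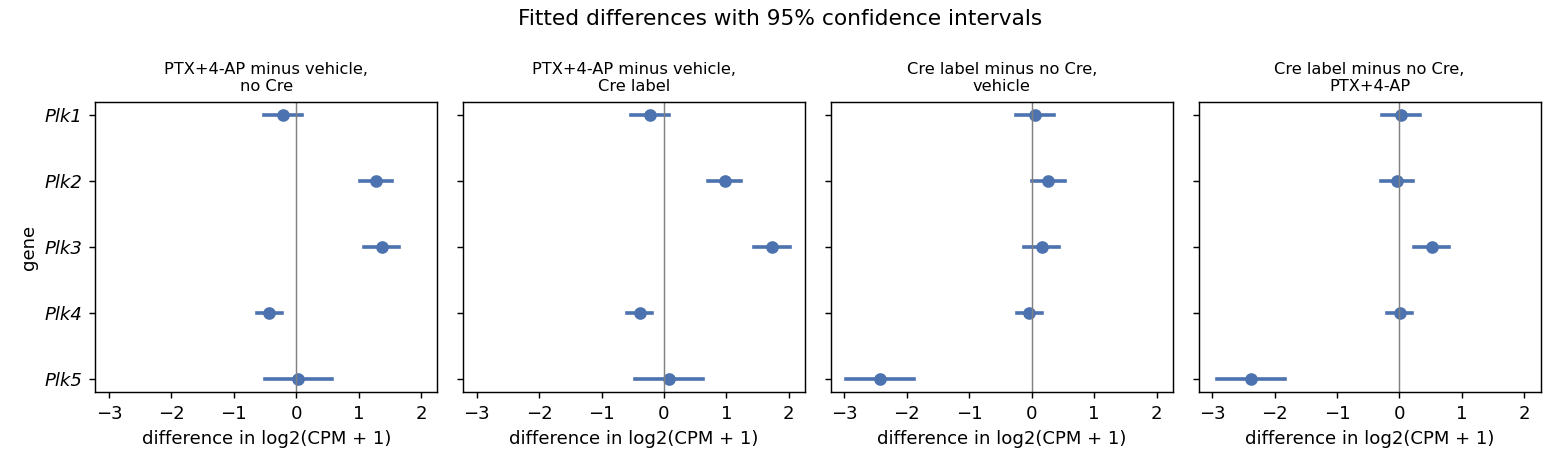
Fitted differences in log2(CPM + 1) for each Polo-like kinase (vertical axis) in the 4 pairwise comparisons. Points are estimates from the fit to all 12 libraries and lines their 95% confidence intervals. Under the drugs with the Cre label the intervals of Plk2 and Plk3 lie above 0 and that of Plk4 below 0. Between the genotypes in treated slices that of Plk5 lies far below 0. Intervals for the drugs without Cre and for genotype in vehicle are description only, since these comparisons were handled as used in choosing the family.

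No member was called as responding differently in the 2 genotypes when that difference was tested. The interaction term, the response with the Cre label minus that without, was -0.30 for Plk2 (95% interval -0.67 to 0.06) and 0.36 for Plk3 (95% interval -0.04 to 0.76), both with a limma adjusted p of 0.988. It was -0.02 for Plk1, 0.04 for Plk4 and 0.05 for Plk5 (limma adjusted p from 0.993 to 0.997), so 0 of 5 members were called beside 0.023% of all tested genes. At an unadjusted limma p below 0.05 the count of members was also 0, beside 568 of all 13048 tested genes. The edgeR and DESeq2 fits called 0 of 5 members, beside 3 and 42 of all tested genes. With shares this low over all genes, a count of 0 among 5 says little. The intervals of Plk2 and Plk3 thus still include differences as large as -0.67 and 0.76.

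The promoters of Plk2 and Plk3 are shown because these genes moved together under the drugs. Both are RefSeq windows of GRCm38.p6 from 250 bases before to 50 bases after the annotated start, written 5′ to 3′ on the strand of the gene, chr13:110394794-110395093 on the plus strand for Plk2 and chr4:117133914-117134213 on the minus strand for Plk3. Capitals mark matches to the cAMP response element TGACGTCA or its shorter form TGACG on either strand, the site at which CREB-type factors bind.
Plk2: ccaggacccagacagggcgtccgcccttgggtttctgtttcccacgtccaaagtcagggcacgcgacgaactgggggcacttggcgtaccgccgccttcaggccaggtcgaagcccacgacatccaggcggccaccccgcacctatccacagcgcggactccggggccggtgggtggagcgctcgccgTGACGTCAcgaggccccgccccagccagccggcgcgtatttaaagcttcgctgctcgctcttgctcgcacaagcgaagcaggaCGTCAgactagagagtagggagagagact
Plk3: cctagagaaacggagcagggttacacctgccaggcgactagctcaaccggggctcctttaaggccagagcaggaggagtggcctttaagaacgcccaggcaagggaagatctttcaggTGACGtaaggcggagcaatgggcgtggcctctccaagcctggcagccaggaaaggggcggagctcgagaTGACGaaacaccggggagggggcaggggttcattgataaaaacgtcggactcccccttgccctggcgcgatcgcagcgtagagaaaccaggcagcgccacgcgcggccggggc

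The Plk2 window held 1 full element, from -62 to -55 relative to the start, and a further short form from 21 to 25 on the opposite strand. Each end of the full element, which reads the same on both strands, also counts as a short form. The full element was found in 1.79% of the 32851 windows of this length in the table. Plk3 held 2 short forms, from -132 to -128 and from -63 to -59, and 20.8% of all windows held at least 1. The Plk4 window had 1 short form and a match to the MEF2 consensus from -77 to -68, which 3.19% of windows carry. The E-box CANNTG, present in 72.3% of windows, matched in the windows of Plk1, Plk2, Plk3 and Plk5. The AP-1 site TGANTCA, the CArG box and a single copy of the p53 decamer, found in 7.81%, 1.63% and 8.36% of windows, matched in none of the 5. The CHR element TTTGAA, found in 17.9% of windows and known as a cell cycle element of promoters, matched in the window of Plk1 alone among the 5. Such matches describe the letters of these windows and do not show binding.

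The genotypes were compared first in vehicle slices, the comparison in which the fall of Plk5 was known. Plk5 stood at 9.01, 6.69 and 10.3 CPM without Cre and at 0.657, 0.916 and 0.762 CPM with the Cre label, on 723 to 1207 and 65 to 107 reads per library. Every library labelled Cre was far below every library without Cre. The mean was 11.1-fold lower, a log2 difference of -2.43 (SE 0.25), the second most negative of all tested genes. The pseudocount compresses this value too, and it was -3.31 with 0.1 CPM added and -1.23 with 5. Plk2 was 1.20-fold higher in mean CPM with the Cre label, at 168 to 172 against 127 to 149 CPM, so its groups were separate. Plk1, Plk3 and Plk4 overlapped between the genotypes. As description only, 1 of 5 members was called lower and 0 higher in limma, beside 10.1% and 9.18% of all tested genes.

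The genotypes were then compared in treated slices, which are other libraries, although the spread in the fit and the choice of the family are shared. Plk5 was lower in all libraries labelled Cre, at 0.554, 1.24 and 0.915 CPM against 9.59, 5.20 and 13.2 CPM without Cre. The mean was 10.3-fold lower, and the log2 difference of -2.38 (SE 0.25, limma adjusted p = 7.79e-05) was the third most negative of 13048. With pseudocounts of 0.1 and 5 it was -3.20 and -1.24. The call held under all 20 alternatives in which Plk5 was tested, with a limma, edgeR or DESeq2 adjusted p of at most 0.00629. Plk3 was higher with the Cre label after treatment, at 33.6, 25.8 and 24.1 CPM against 20.3, 16.5 and 20.3 CPM, without overlap. It rose by 0.52 on the log2 scale (SE 0.13, limma adjusted p = 0.0201), a ratio of means of 1.46. This call rested on single libraries, since it was lost without flox treated replicate 2 (0.42, limma adjusted p = 0.0857) and without cKO treated replicate 1 (0.38, limma adjusted p = 0.0612). It was also lost in a fit to the 6 treated libraries alone (limma adjusted p = 0.0904).

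The remaining members did not pass in treated slices. Plk2 had a log2 difference of -0.04 (95% interval -0.30 to 0.22, limma adjusted p = 0.876), with treated libraries between 282 and 383 CPM in both genotypes. Plk1 differed by 0.03 (95% interval -0.27 to 0.34) and Plk4 by 0.01 (95% interval -0.19 to 0.20), with limma adjusted p values of 0.912 and 0.972. Calls were thus 1 higher and 1 lower of 5, beside 7.5% and 5.95% of all tested genes.

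**Figure D3:**
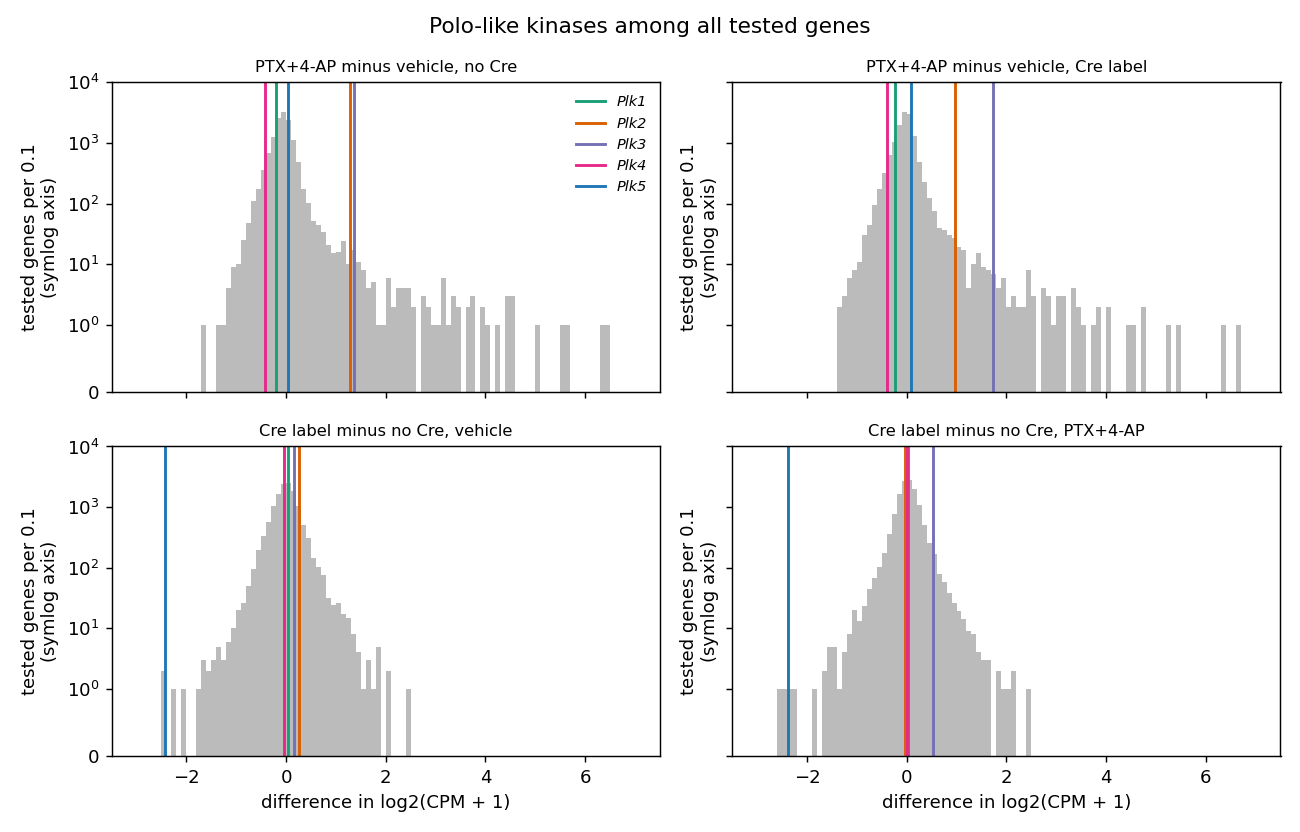
Histograms of the fitted difference in log2(CPM + 1) for all 13048 tested genes in bins of 0.1, with a symlog vertical axis, and coloured lines at the 5 Polo-like kinases. Plk2 and Plk3 lie in the upper tail of both drug comparisons, and Plk5 lies at -2.43 and -2.38, in the far lower tail of both genotype comparisons.

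The spread of Plk5 within a group was the widest of the family in treated slices, with a coefficient of variation of 42.9% without Cre and 37.9% with the Cre label, against 7.38% to 18.4% for the other members. Without Cre, replicate 2 held the lowest Plk5 and replicate 3 the highest under both treatments, although the labels do not say what the replicate number stands for. Markers of several neuron types also differed between the genotypes. The summed level of 6 layer 4 markers ranged from 173 to 198 CPM in vehicle and 161 to 212 CPM in treated slices without Cre, and from 111 to 128 and 94.1 to 133 CPM with the Cre label. Of the 6, 5 were called lower in vehicle (Rspo1 at -1.31, Cyp39a1 at -0.70, Whrn at -0.89, Rorb at -0.67 and Kcnh5 at -0.41, all by limma) and 4 in treated slices, while the sodium channel subunit Scnn1a was not called. Of all tested genes 10.1% were called lower in vehicle and 5.95% in treated slices. Within each group, the library with the lowest Plk5 had the highest layer 4 sum. Without Cre this was replicate 2, with Plk5 at 6.69 and 5.20 CPM and sums of 198 and 212 CPM in vehicle and treated slices. With the Cre label it was replicate 1, with Plk5 at 0.657 and 0.554 CPM and sums of 128 and 133 CPM. In treated slices without Cre, Rorb, Kcnh5 and Whrn, at mean levels of 69.2, 53.5 and 37.9 CPM, made up most of the layer 4 sum. Rspo1 of the same list averaged 7.41 CPM there and had a correlation of 0.98 with Plk5 over the 12 libraries. Whether layer 4 cells bear on Plk5 was not tested.

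Dentate granule cell markers did not move as a block with Plk5. Their summed level over 8 genes was 149 to 159 CPM in vehicle without Cre and 142 to 162 CPM with the Cre label. Of the 6 tested, 2 were called higher (Tdo2 at 1.29 and C1ql3 at 0.99 on the log2 scale) and 1 lower (Lct at -1.17) in vehicle slices. Each count of markers in vehicle given here stands beside 9.18% of all tested genes called higher and 10.1% called lower. In layer 2/3, 6 of 8 markers were lower and 2 higher in vehicle, with sums of 1087 to 1204 CPM without Cre and 945 to 1033 CPM with the Cre label. In CA1, 3 of 5 were higher and 0 lower, with sums of 538 to 599 and 776 to 872 CPM. Of 8 general excitatory neuron markers 4 were higher, with sums of 4858 to 5271 and 5146 to 5817 CPM, and of 8 astrocyte markers 2 were lower, with sums of 19032 to 21493 and 16641 to 18033 CPM. Of 8 inhibitory neuron markers 2 were higher, Sst and Gad2, with sums of 470 to 485 and 585 to 625 CPM, and of 7 microglia markers 2 were lower, C1qa and Csf1r, with sums of 237 to 293 and 177 to 231 CPM. Neither of these sums overlapped between the genotypes in vehicle, whereas both did in treated slices. The inhibitory marker Pvalb went the other way, at -0.62 in vehicle, where it did not pass. In treated slices Pvalb was called lower at -0.75 (limma adjusted p = 0.0367), and Sst was the only inhibitory marker called higher. In slices that hold many cell types, fewer cells that carry Plk5 and less Plk5 RNA per cell cannot be told apart. The part of these marker shifts in the fall of Plk5 was not tested.

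The genes most like each kinase were taken as the 5 highest Pearson correlations of log2(CPM + 1) over the 12 libraries, which share the same 4 groups, so that any gene with the same group pattern scores high. For Plk2 these were Dusp6 (r = 0.995), Coq10b, Ppp1r15b, Kdm7a and Gadd45b, all at 0.99. Dusp6, which encodes an ERK phosphatase, averaged 14.8 and 146 CPM without Cre and 23.1 and 131 CPM with the Cre label, in vehicle and treated slices. For Plk3 they were Kdm6b, Errfi1, Arl5b, Lonrf1 and Gpr3, all at 0.99, and each had its highest group mean in the treated slices labelled Cre, as Plk3 did. Kdm6b, a histone demethylase gene, averaged 60.1 and 204 CPM without Cre and 66.7 and 286 CPM with the Cre label.

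For Plk5 the nearest were Neurog2, a neurogenic transcription factor gene, at 0.99, Atp6ap1l at 0.99, and Rspo1, Mapk3 and Cd302 at 0.98. Neurog2 averaged 2.85 and 2.90 CPM without Cre but 0.204 and 0.248 CPM with the Cre label. Rspo1 is also one of the layer 4 markers. For Plk4 they were Yy1, Trim59, Zfp454, Zfp850 and Pcgf1, from 0.96 to 0.97, all with lower means after treatment. For Plk1 they were the cyclin gene Ccna2 at 0.87 and Hdhd3, RP23-211P15.1, Gas2l3 and Asb3 from 0.82 to 0.85. Within the family, Plk2 and Plk3 had a correlation of 0.94, Plk4 had -0.89 with Plk2 and -0.88 with Plk3, and Plk5 lay between -0.17 and 0.00 with the other 4, all as descriptions over the 12 libraries.

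**Figure D4:**
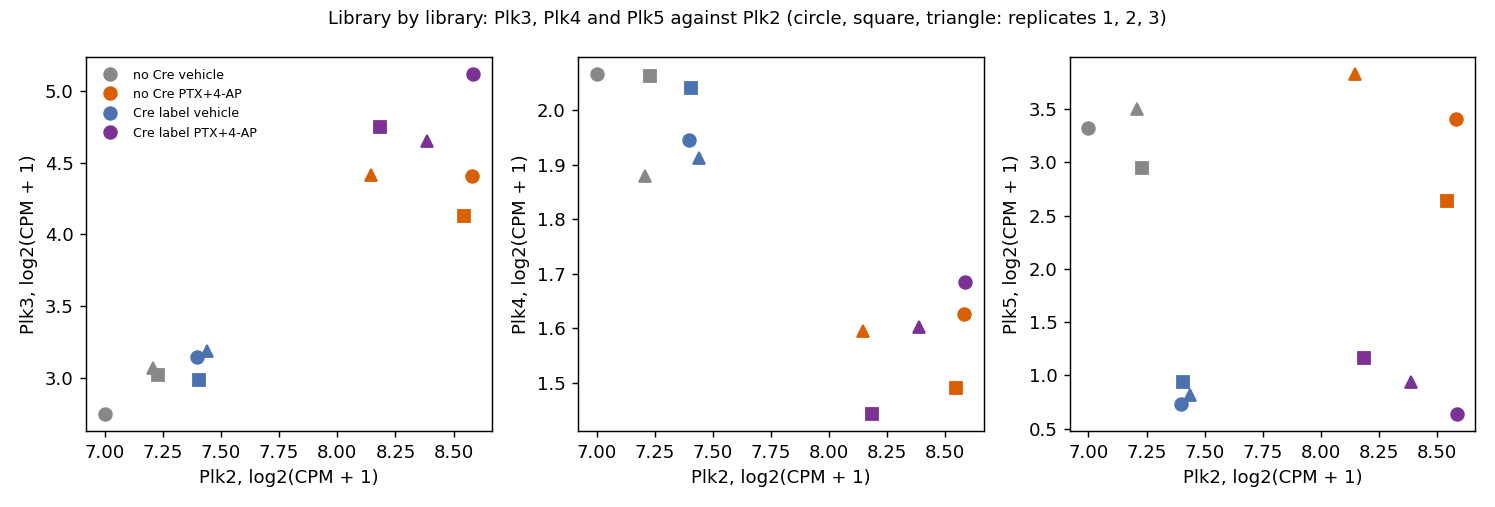
Plk3, Plk4 and Plk5 against Plk2, as log2(CPM + 1), 1 point per library, coloured by group and shaped by replicate number. Treated and vehicle libraries separate along Plk2 in each panel, Plk3 rises and Plk4 falls with it (correlations of 0.94 and -0.89), and Plk5 separates the genotypes at both levels of Plk2.

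Partners of the kinases were followed in lists drawn up with earlier results of the series known. Around Plk2 at the synapse, 16 genes for its substrates and their partners were tested. Without Cre 0 rose and 2 fell under the drugs, the small GTPase gene Rap2b at -0.37 (limma adjusted p = 0.000307) and Rapgef2, an activator of Rap and a PLK2 substrate, at -0.23 (limma adjusted p = 0.0498), where 9.34% of all tested genes were called lower. With the Cre label 4 fell, among them Rapgef2 at -0.39, Rap2b at -0.27 and the ubiquitin ligase subunit gene Btrc at -0.22, and 1 rose, Rap2a at 0.24, beside 10.3% lower and 3.79% higher over all tested genes. The medians of -0.02 and 0.06 sat beside -0.06 and -0.03 over all tested genes. By genotype 3 of the 16 were higher in vehicle, Nsf, a vesicle fusion ATPase gene, Rap2a and Rapgef2, and 3 in treated slices, Rap2a, Rap1b and Rasgrf1, with 0 lower, beside 9.18% and 7.5% of all tested genes called higher.

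Around Plk4, 15 centriole genes were tested and 1, Stil, rose under the drugs in both genotypes. Rises were called for 3.24% of all tested genes without Cre and 3.79% with the Cre label. Stil, whose protein binds PLK4 and builds the new centriole, averaged 1.05 ± 0.149 and 7.92 ± 1.27 CPM without Cre, in vehicle and treated slices, and 0.872 ± 0.0837 and 6.53 ± 2.00 CPM with the Cre label (SD, n = 3 each). The log2 rises were 2.11 and 1.98 (SE 0.16 each). No other gene of the list rose in either genotype, and Btrc fell with the Cre label, where 10.3% of all tested genes were called lower. The list medians were -0.06 and -0.13. No centriole gene was called between the genotypes. Of all tested genes 9.18% were called higher and 10.1% lower in vehicle, and 7.5% and 5.95% in treated slices.

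Around Plk1, 12 of 20 mitotic genes reached the level for testing, and Ccnb1, Ccnb2, Cdk1, Cdc25c, Fbxo5, Bub1, Kif20a and Ect2 did not. In both genotypes 2 fell under the drugs and 0 rose, the phosphatase gene Cdc25a at -0.34 and -0.39 and the transcription factor gene Foxm1 at -0.31 and -0.32, without and with the Cre label. Over all tested genes 9.34% and 10.3% were called lower. The list medians were -0.12 and -0.07. By genotype Wee1 was higher in vehicle, and in treated slices Aurka, which encodes the kinase that activates PLK1, was higher at 0.44 and Tpx2 lower at -0.40. These were the only calls by genotype among the 12. Of all tested genes 9.18% were called higher in vehicle, and 7.5% higher and 5.95% lower in treated slices. Of 8 tested markers of proliferating cells 0 were called without Cre, and with the Cre label Mcm2 and Mki67 fell and Pcna rose. With the Cre label 10.3% of all tested genes were called lower and 3.79% higher. The median log2 differences of these markers were -0.23 without and -0.25 with the Cre label, lower than the -0.06 and -0.03 of all tested genes. Their summed level, of which Pcna made up most (40.0 and 49.7 CPM without Cre in vehicle and treated slices, 40.6 and 53.8 CPM with the Cre label), overlapped between vehicle and treated slices, at 65.1 to 67.8 and 65.4 to 78.6 CPM without Cre and 65.1 to 72.4 and 68.2 to 90.3 CPM with the Cre label. Their part in the falls of Plk4 was not tested.

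PLK2 and PLK3 are known in stress responses that run through p53, and 13 of 14 such genes were tested. Without Cre 3 rose, Gadd45b at 3.75, Gadd45g at 3.37 and the cell cycle inhibitor gene Cdkn1a at 0.57, and the apoptosis gene Bbc3 fell by 0.52. With the Cre label Gadd45b, Cdkn1a and Gadd45g rose by 3.30, 0.97 and 2.81, and Sesn1 and Bbc3 fell by 0.49 and 0.71. Beside these counts, 3.24% of all tested genes were called higher and 9.34% lower without Cre, and 3.79% and 10.3% with the Cre label. The list medians were 0.01 and 0.07. Among other inducible kinase genes, 5 of 7 tested rose in each genotype and 0 fell, beside the same shares of all tested genes. Pim1, Sik1, Pim3 and Sgk1 rose by 3.63, 2.15, 2.40 and 1.41 without Cre and by 4.04, 2.41, 2.03 and 1.46 with the Cre label, so that each exceeded Plk2 in both genotypes on this scale. The list medians were 1.41 and 1.46.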

How the data were processed

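The authors deposited 1 table of CPM, the reads of a gene scaled to a common total of counted reads, with 1 column per library and columns named WT and KO, which were matched to the samples without and with the Cre label by title. Per the submitters' processing notes, FastQC, Trimmomatic, STAR, DESeq2 and mm10 were used, with no versions or roles. Not given in the sources used here are the counting tool, its annotation and its strand setting. All columns were used. Values were whole multiples of 1 step per column within 0.001 reads, which gave the read totals. In cKO vehicle replicate 1 that step is near a power of 10, so rounding could look alike.

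Genes averaging 1 CPM or more over the libraries (13048, all 5 kinases among them) were fitted as log2(CPM + 1) over the 4 groups and 12 libraries with limma 3.58.1 in R 4.3.3 (trend and robust moderation, two-sided), with Benjamini-Hochberg adjustment of p-values across the tested genes of each comparison and a threshold of 0.05. The fit was tested on simulated data. On recovered reads edgeR 4.0.16 (quasi-likelihood, TMM) and DESeq2 1.42.0 were run as alternatives. Coordinates and exon lengths are from GENCODE M21 (GRCm38, the assembly of mm10).

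The members and lists were chosen with earlier results of these data known. Named genes followed a rule: the 5 kinases, Mef2c, the 5 genes most correlated with each kinase (names of the Gm and Rik type left out), and up to 4 called genes per pathway list and comparison. Marker genes, uncalled genes and called genes of a list beyond 4 were named after their values were seen. A called gene of the Plk2 list is not reported here by name. Within the genotype labelled Cre, vehicle and treated libraries of equal number deviated together (r = 0.17, 0.14 and 0.48), which meets the level of 0.1 taken as pairing, and without Cre they did not all do so (0.06, 0.41 and 0.07). No library was a copy of another in its group (chi-squared per degree of freedom at least 26.4). This measure was 26.4 to 40.6 for pairs of vehicle libraries and 45.8 to 182 for pairs of treated libraries, so treated libraries varied more. The fit used 1 spread per gene for all groups, which can make p-values within treated slices too small and those within vehicle slices too large.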

Additional observations from a re-analysis of the deposited data

How the results depend on the processing

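Over the alternatives, Plk2 and Plk3 kept their rise under treatment and Plk5 its fall by genotype wherever they were tested, and the calls that single libraries ended are given above. A filter at 5 CPM left Plk2 and Plk3 as the only members tested, so that by construction 0 members were called by genotype in vehicle and 1 in treated slices. A fit to the compared groups alone called 2 members in vehicle (Plk5 and Plk2, as description) and 1 in treated slices, and 4982 and 614 genes in all instead of 2518 and 1755. With 1 library left out, members called in treated slices by genotype ranged from 1 to 2. The counts over all genes then ranged from 1046 to 2227 for treatment without Cre, from 1173 to 3248 and from 1151 to 2687 for genotype in vehicle and treated slices, and from 0 to 6 for the interaction. DESeq2 called 42 genes for the interaction. With the replicate block within genotype, added after the data were seen, the interaction had 0 called genes. Neither that replicate block nor the planned replicate block over all libraries changed the call of any kinase, and for Plk4 with the Cre label the former gave an adjusted p of 0.0361. Causes of these shifts were not tested. Depth was lowest for Plk5 in the libraries labelled Cre, at 65 to 144 reads, and for Plk1, at 91 to 230 reads.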
